A study of Mus musculus with 6 samples.

Results

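Clec7a, Clec5a and Fcgr3 encode activating receptors on the surface of macrophages and osteoclast precursors. They were taken by gene symbol from the table that the authors deposited, and all 3 had a row among its 109 genes. The table is not a full transcriptome. The authors had kept genes whose adjusted p-value between the same 6 libraries was under 0.05 and whose log2 fold change was above 1 or below -1. The direction and a fold change near or above 2 were therefore set before any value below was computed, and the tests on this contrast describe the genes without being independent evidence that they changed.

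The cells were bone marrow macrophages (BMMs) of C57BL/6 mice, which fuse into bone-resorbing osteoclasts when given the cytokine RANKL. Both groups received RANKL at 30 ng/ml for 5 days. The 3 control libraries had RANKL without mogrol, and the 3 mogrol libraries had 20 μM mogrol as well, a triterpenoid aglycon from the fruit of Siraitia grosvenorii. The authors grew their BMMs with the growth factor M-CSF, which they do not restate for the sequenced cultures. There was no group without RANKL. The labels do not say whether the 3 libraries of a group came from separate animals or cultures, so p-values measure the spread between these libraries only. Library totals, recovered from the deposited counts and FPKM, lay between 18097882 and 18652439 reads. The genes of the table held 2.04% to 2.27% of the reads without mogrol and 1.21% to 1.25% with mogrol.

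Activating myeloid receptors signal through the immunoreceptor tyrosine-based activation motif (ITAM), a pair of tyrosines that is phosphorylated by Src-family kinases and then recruits the kinase Syk. Clec7a (Dectin-1) is a C-type lectin for fungal beta-glucan and carries an ITAM-like motif with a single tyrosine in its own tail. Clec5a (MDL-1) is a C-type lectin with a short tail that pairs with the adaptor Tyrobp (DAP12), and Fcgr3 is a low-affinity receptor for immunoglobulin G that pairs with the adaptor Fcer1g (the Fc receptor gamma chain). In osteoclast precursors, signals through these adaptors can act beside RANKL to raise calcium and NFATc1. The authors, by contrast, count Fcgr3 among the genes that suppress osteoclast formation.

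All 3 genes rose with mogrol, as did 41.3% of the genes of the table, and a common regulator was not tested. The upstream sequences of the genes are shown for reference. They are the 250 bases before a start site in the RefSeq annotation of GRCm38.p6, read on the minus strand. Capitals mark GAGGAA or its reverse-strand form TTCCTC, the core recognised by PU.1, an ETS-family factor of the myeloid lineage. The windows are chr6:40585806-40586055 for Clec5a, chr1:171059404-171059653 for Fcgr3 and chr6:129472780-129473029 for Clec7a.
Clec5a: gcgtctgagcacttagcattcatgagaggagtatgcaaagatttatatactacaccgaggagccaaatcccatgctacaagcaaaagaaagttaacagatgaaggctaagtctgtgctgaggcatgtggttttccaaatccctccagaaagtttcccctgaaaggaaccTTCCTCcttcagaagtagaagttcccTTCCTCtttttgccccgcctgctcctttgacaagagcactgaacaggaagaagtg
Fcgr3: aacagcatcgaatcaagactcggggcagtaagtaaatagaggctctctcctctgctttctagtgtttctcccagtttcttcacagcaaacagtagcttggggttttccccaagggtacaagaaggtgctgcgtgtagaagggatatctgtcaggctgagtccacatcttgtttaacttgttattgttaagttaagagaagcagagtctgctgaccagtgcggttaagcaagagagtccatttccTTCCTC
Clec7a: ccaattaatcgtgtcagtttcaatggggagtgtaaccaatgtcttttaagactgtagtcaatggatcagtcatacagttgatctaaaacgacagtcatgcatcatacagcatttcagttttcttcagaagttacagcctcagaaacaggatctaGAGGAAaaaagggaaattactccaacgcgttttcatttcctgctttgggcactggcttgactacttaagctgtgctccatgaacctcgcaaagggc

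Counting back from the start site, Clec5a had a match at bases 81 to 76 and another at 55 to 50. Fcgr3 had a match at bases 6 to 1, and Clec7a had a match at bases 96 to 91. Of 27025 mouse genes with such a window, 6252 (23.1%) held GAGGAA on either strand. The share was 20 of 34 (58.8%) among genes called higher with mogrol that had a window, the 3 receptor genes included, and 13 of 45 (28.9%) among genes called lower. These shares were not tested, and a match is only a run of letters, not a bound site. The 27025 genes were not limited to genes expressed in these cells. The shares used the first listed start of each gene, so a printed match of Fcgr3 or Clec7a need not be among the 20. TGANTCA, the AP-1 type of motif, and a pair of GAAA runs with 2 bases between them, an interferon-response type, both searched on either strand, had no match in the 3 windows, against 6.87% and 3.04% of all windows. GGAAA, the NFAT type of core, which overlaps any GAGGAAA, was present in all 3 but also in 55.6% of all windows. The Clec7a window begins at the end of the deposited gene itself, the Clec5a start lies 16 bases from it, and the Fcgr3 start lies 5532 bases inside the deposited gene.

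Clec5a was the most abundant of the receptor genes and rose 2.40-fold with mogrol. It lies on chromosome 6, 40574894 to 40585821 (ENSMUSG00000029915, GRCm38, minus strand), and overlaps no other annotated gene. The control libraries held 799, 746 and 671 reads, and the mogrol libraries 1797, 1721 and 1756. In FPKM, reads per kilobase of gene and per 1000000 reads of the library, the control values were 11.23, 10.42 and 9.6 and the mogrol values 25.29, 24.76 and 24.89. Each mogrol library lay above each control library, and the mogrol libraries were close to each other.

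Expressed as reads per 1000000 library reads (RPM), Clec5a went from 39.99 ± 3.15 to 95.9 ± 1.06 (SD, n = 3 libraries each). The log2 fold change was 1.26 with a standard error of 0.0927 (adjusted p = 1.4e-34 over the 109 genes, edgeR's quasi-likelihood test). The SD of the mogrol libraries was 1.11% of their mean, below the 2.39% that counting error alone gives at this depth. In control cells the SD was 7.86% of the mean against 3.68% from counting. These RNAs come from whole cultures, so more cells of a type and more RNA per cell cannot be told apart.

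Fcgr3 rose 2.33-fold with mogrol, and its libraries were the most spread of the 3 genes in the mogrol group. The gene lies on chromosome 1, 171051174 to 171064935 (ENSMUSG00000059498, minus strand), and the microRNA gene Mir6546 sits inside it on the same strand at 171064591 to 171064652. Its reads were 328, 257 and 274 without mogrol, and 717, 559 and 709 when mogrol was added. The FPKM values were 10.2, 7.94 and 8.67 against 22.32, 17.79 and 22.23. Replicate 2 was the lowest library in both groups, yet the groups did not overlap.

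The mean RPM of Fcgr3 went from 15.5 ± 2.01 to 36.1 ± 4.50 (SD, n = 3 libraries each). Its log2 fold change was 1.22 with a standard error of 0.114 (adjusted p = 2.6e-23, edgeR's quasi-likelihood test). The SD was 12.9% and 12.5% of the mean in the 2 groups, against 5.91% and 3.89% from counting error.

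Fcgr3 shares sequence with Fcgr2b, which encodes the inhibitory Fc gamma receptor and lies 74627 bases away on the same strand of chromosome 1. The longest identical run in coding transcripts of GENCODE M21 was 129 bases. It spans exons 3 and 4 of an Fcgr3 transcript, between 171054167 and 171057792 on the minus strand, inside the coding part, and is printed because reads from it could belong to either gene.
Fcgr3 and Fcgr2b: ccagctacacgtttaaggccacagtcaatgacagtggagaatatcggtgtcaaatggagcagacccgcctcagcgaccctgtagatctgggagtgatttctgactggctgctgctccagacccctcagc
Of all distinct 50-base windows of Fcgr3 transcripts, 9.58% also occurred in Fcgr2b. The share fell to 2.54% for 100-base windows and to 0 of 1733 windows for 150 bases. Clec5a and Clec7a shared no window of 50, 100 or 150 bases with any other gene. Read length and the treatment of ambiguous reads are not given in the sources used here, and Fcgr2b was not analysed here. The part of the Fcgr3 reads that is uncertain for this reason is therefore not known.

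Clec7a had the lowest level and the largest fold change of the 3 genes, 2.88-fold. It lies on chromosome 6, 129461591 to 129472779 (ENSMUSG00000079293, minus strand), and overlaps no other annotated gene. GENCODE M21 gives it the biotype polymorphic pseudogene, with 2 protein-coding transcripts among 4. Its reads numbered 119, 124 and 84 without mogrol, against 331, 320 and 284 with mogrol. The FPKM values were 2.44, 2.52 and 1.75 against 6.78, 6.7 and 5.86. Replicate 3 was the lowest library of each group, and the groups did not overlap.

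The mean RPM of Clec7a went from 5.90 ± 1.12 to 17.0 ± 1.35 (SD, n = 3 libraries each). Here the log2 fold change was 1.53 with a standard error of 0.155 (adjusted p = 2.1e-20, edgeR's quasi-likelihood test). Its standard error was the largest of the 3, and its reads were the fewest. The SD was 18.9% of the mean in the control libraries and 7.92% in the mogrol libraries, against 9.58% and 5.66% from counting error. Leaving out control replicate 3, the library with 84 reads, gave the lowest log2 fold change of the 6 such fits, 1.38.

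**Figure D1:**
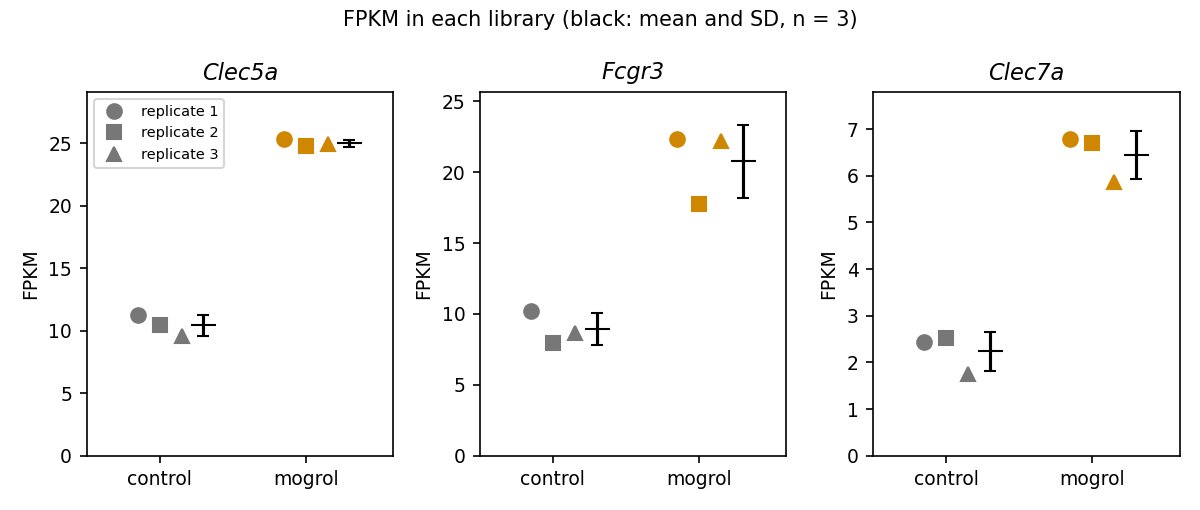
FPKM of Clec5a, Fcgr3 and Clec7a (vertical axes, each from 0) in the 3 control and 3 mogrol libraries; symbols mark replicate numbers, and black bars the mean and SD. In every panel the mogrol libraries sit above the control libraries, with Clec5a between 24.76 and 25.29 after mogrol and Fcgr3 spread from 17.79 to 22.32.

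All 3 receptor genes were called higher (log2 fold change above 1, adjusted p-value under 0.05, edgeR's quasi-likelihood test), in a table where 41.3% of genes (45 of 109) met that rule and 56.9% were called lower. For 41.3% of the genes, the receptor genes among them, every mogrol library lay above every control library, and for the other 58.7% every mogrol library lay below. The selection of the table fixes such a separation, so nothing is read from the count. The split of higher to lower genes was 45 to 62 on library totals, 45 to 36 with TMM over the table and 45 to 8 with median-of-ratios scaling over the table, and the receptor genes were called higher under each. These last scalings assume that most genes do not change, which does not hold for a table of selected genes, and they moved the median log2 fold change of all genes by 0.37 and 0.98.

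Within the table the receptor genes were ordinary in size of change. Ranked by log2 fold change from the largest increase, Clec7a was 14th, Clec5a 30th and Fcgr3 31st of 109. The 45 higher genes had a median log2 fold change of 1.31 and ran from 1.10 to 2.91. In control FPKM, which allows genes to be compared per length, Clec5a ranked 9 and Fcgr3 10 among the 45 higher genes, whose median was 2.44 FPKM. Clec7a, with a mean of 2.24 FPKM, ranked 25.

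**Figure D2:**
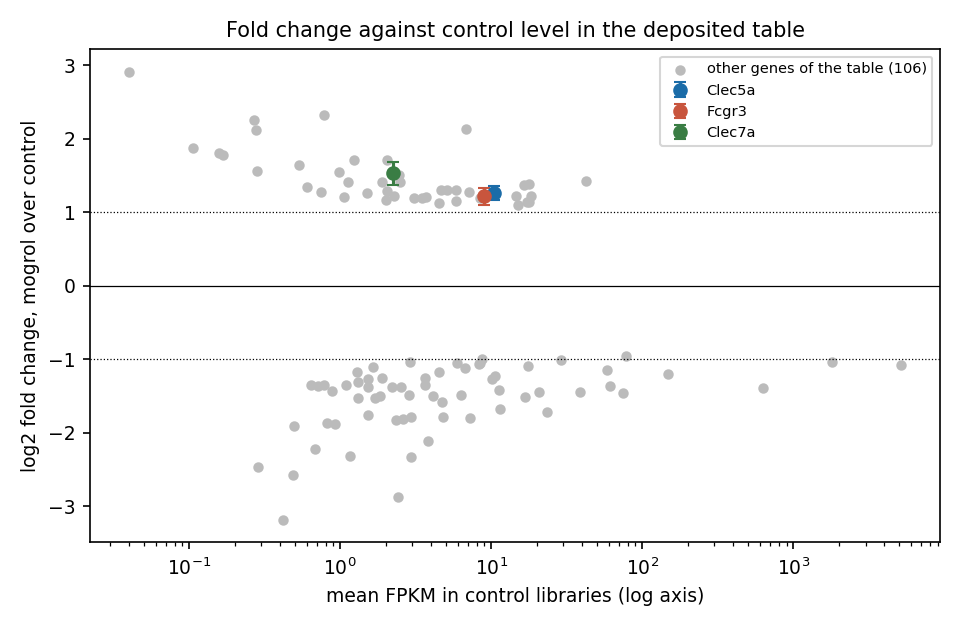
Log2 fold change of mogrol over control (vertical axis; dotted lines at 1 and -1) against mean control FPKM (horizontal log axis) for the 109 genes; bars on the receptor genes are standard errors. Clec5a and Fcgr3 sit together near 10 FPKM with log2 fold changes of 1.26 and 1.22, and Clec7a lies higher, at 1.53, and further left, at 2.24 FPKM.

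The order of levels per length was Clec5a, Fcgr3 and Clec7a in both groups. Clec5a lay above Fcgr3 in each of the 6 libraries. Over the control libraries their ranges overlapped (9.6 to 11.23 and 7.94 to 10.2 FPKM), and over the mogrol libraries they did not (24.76 to 25.29 and 17.79 to 22.32 FPKM). Clec7a was below both in every library.

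The ratio of a pair of receptor genes within a library needs no scaling between libraries and asks whether mogrol changed the receptors unequally. Clec5a reads per Fcgr3 read were 2.44, 2.9 and 2.45 in the controls against 2.51, 3.08 and 2.48 with mogrol, with replicate 2 the highest in each group. The log2 change of this ratio was 0.05 (standard error 0.131, exact permutation p = 0.5). Clec7a reads per Clec5a read were 0.149, 0.166 and 0.125 against 0.184, 0.186 and 0.162, a log2 change of 0.28 (standard error 0.136, exact permutation p = 0.2).

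Clec7a reads per Fcgr3 read were 0.363, 0.482 and 0.307 against 0.462, 0.572 and 0.401, a log2 change of 0.33 (standard error 0.243, exact permutation p = 0.3). In all 3 pairs the groups overlapped, but each ratio was higher in the mogrol library than in the control library of the same number. The test did not use these numbers. The tests were two-sided, and adjusted over the 3 pairs the p-values were 0.45 for both pairs with Clec7a and 0.5 for Clec5a with Fcgr3. With 3 libraries against 3 the smallest p this test can give is 0.1, so it could not have called an unequal change of any size. The log2 fold change of Clec7a exceeded that of Clec5a by 0.24 with log2(FPKM + 0.1) and by 0.02 with log2(FPKM + 1). The added 1 shrinks the changes of low genes, and Clec7a was the lowest of the 3.

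Summed, the 3 receptor genes held 61.4 ± 5.45 RPM without and 149 ± 5.08 RPM with mogrol (SD, n = 3 libraries each). Clec5a supplied 65.2% ± 1.03 and 64.4% ± 1.58 of these reads. The share of Fcgr3 was 25.3% ± 2.13 and 24.2% ± 2.33, and that of Clec7a 9.57% ± 1.42 and 11.4% ± 1.00. For each gene the shares overlapped between the groups, whereas the summed levels did not.

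Against Ctsk, the gene of the collagen-degrading protease cathepsin K of osteoclasts, the receptor genes shifted further, because Ctsk was lower with mogrol (log2 fold change -1.08). Clec5a had 5.9, 4.68 and 4.88 reads per 1000 Ctsk reads in the controls against 26.6, 24.7 and 26.6 with mogrol. The corresponding values were 2.42, 1.61 and 1.99 against 10.6, 8.02 and 10.7 for Fcgr3, and 0.879, 0.778 and 0.611 against 4.91, 4.59 and 4.31 for Clec7a. For each gene the groups were separate. Both sides of these ratios belong to the selected table, so they are given without a test.

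**Figure D3:**
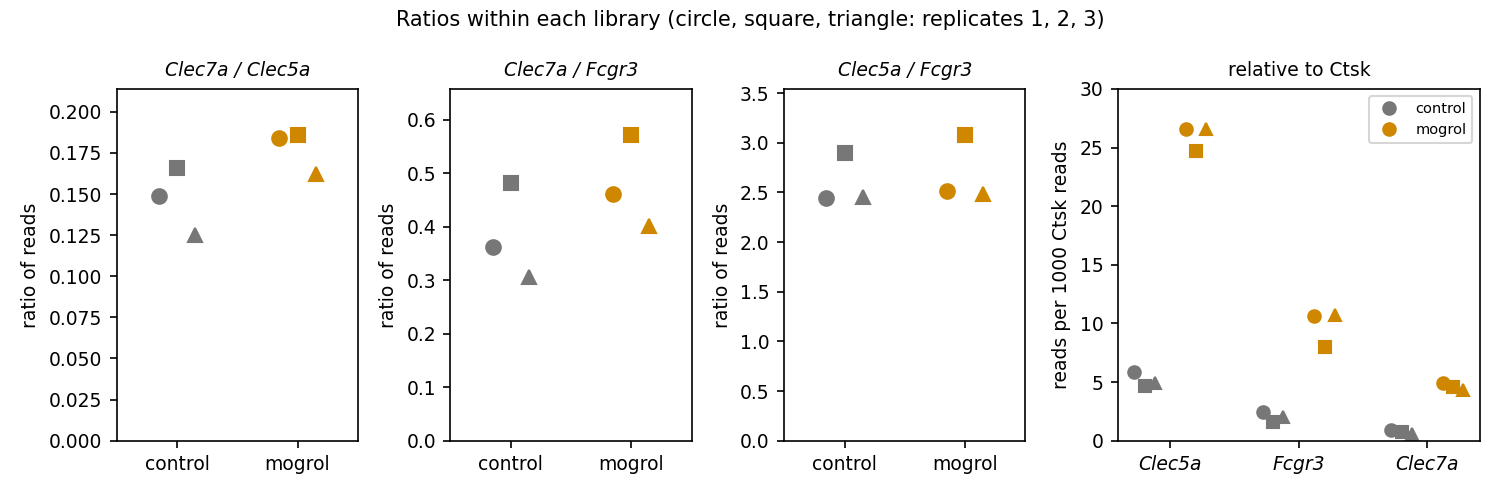
Ratios of reads within each library (vertical axes from 0) for the 3 pairs of receptor genes, and receptor reads per 1000 Ctsk reads; grey is control, orange is mogrol, and symbols mark replicate numbers. The pair ratios overlap between groups, with Clec5a over Fcgr3 at 2.44 to 2.9 and 2.48 to 3.08, whereas all reads per 1000 Ctsk reads are higher with mogrol.

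The pathway around these receptors was represented by few rows. Of 31 activating myeloid receptor genes listed, only the 3 described were in the table, all called higher, as were 41.3% of its genes. The listed receptors did not all rise, since the authors report lower Oscar and Siglec15 expression with mogrol. Of 29 adaptor and signalling genes, Fgr, Cybb and Lat had rows. Fgr, a Src-family kinase of myeloid cells, rose from 19.7 ± 2.92 to 48.4 ± 5.89 RPM (log2 fold change 1.30), and Cybb, the catalytic subunit of the phagocyte NADPH oxidase, had a log2 fold change of 1.37. Lat, a membrane adaptor best known from T cells and mast cells, fell from 23.4 ± 0.831 to 11.3 ± 1.25 RPM (log2 fold change -1.05). Each was called in edgeR's quasi-likelihood test. Tyrobp, Fcer1g, Syk and Card9, through which the receptors signal, were not analysed here.

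Of 22 inhibitory myeloid receptor and phosphatase genes, 4 had rows and all 4 were called higher, as were 41.3% of the genes of the table, with a median log2 fold change of 1.25 beside 1.26 for the activating receptor genes and -1.09 for all 109 genes. They were Lilrb4a (1.14), Cd300a (1.41) and Lair1 (1.29), which carry inhibitory motifs that recruit phosphatases, and Lilr4b (1.22), known as gp49A, which was listed as the close paralog of Lilrb4a but lacks such motifs. Reads could have been split between Lilrb4a and Lilr4b. In summed level the 4 genes, Lilr4b included, held 182.3 to 212 RPM without and 420.7 to 483.3 RPM with mogrol. The activating receptor genes held 56.5 to 67.3 and 143.7 to 153.8 RPM. Both sets were subject to the same selection.

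The few markers of cell types with rows, all selected for a change, did not share one direction. Of 20 osteoclast markers Ctsk and Ckb, the brain-type creatine kinase, had rows. Both were called lower, as were 56.9% of the genes of the table. Their summed levels were 12510 to 13970 RPM without and 6117 to 6460 RPM with mogrol. Of 19 macrophage markers only Cx3cr1, the fractalkine receptor, had a row. It was called higher, at 66.2 to 97.2 RPM without and 196.3 to 225.2 RPM with mogrol. Of 11 monocyte and dendritic cell markers only Itgax, the integrin CD11c, had a row. Itgax was called higher, at 14.7 to 17.8 RPM without and 36.9 to 39.3 RPM with mogrol. Of all genes of the table, 41.3% were called higher, as Cx3cr1 and Itgax were.

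Stromal genes were also present. Of 19 stromal markers 5 had rows. Col3a1, Col6a2, Postn and Thy1 were called lower, as were 56.9% of the genes of the table, and Igfbp5 had a log2 fold change of -0.99. The sum of the 5 was 1196 to 1263 RPM without and 484 to 528.6 RPM with mogrol. Median-of-ratios scaling over the table moves every log2 fold change up by about 0.98, which leaves Ctsk, Ckb, Lat, Col6a2 and Igfbp5 near 0. That scaling assumes that most genes do not change, which does not hold for a table of selected genes. With the size factors of the authors 45 genes were called higher and 64 lower. None of 13 neutrophil, 12 lymphoid or 6 mast cell and basophil markers had a row, which says nothing of their level. The part of these cell types in the values of the receptor genes was not tested, and the labelled cell type could not be checked on other macrophage markers.

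**Figure D4:**
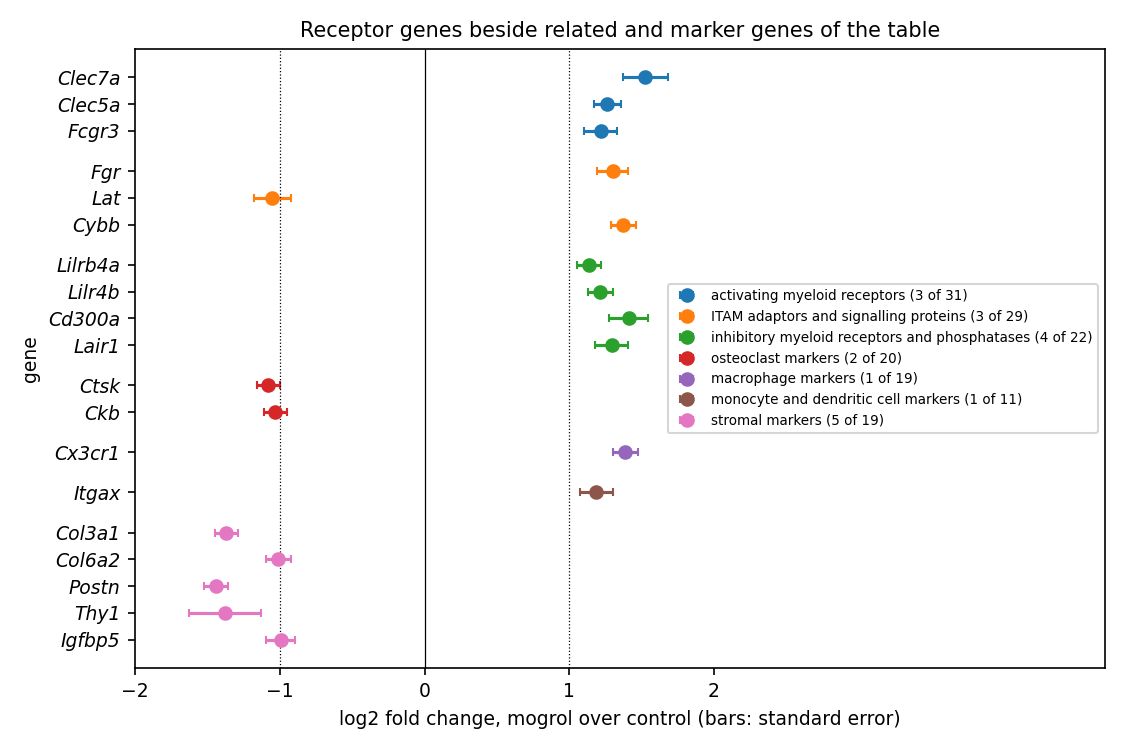
Log2 fold change of mogrol over control (horizontal axis; dotted lines at 1 and -1; bars are standard errors) for the listed genes with rows, grouped by list, with rows found of genes listed in the key. The activating receptors (1.22 to 1.53) lie beside the list of inhibitory receptors (1.14 to 1.41, with Lilr4b), and osteoclast and stromal markers lie on the lower side.

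The genes whose profile was most like that of each receptor gene were found from the root mean square difference of log2 RPM over the 6 libraries, each gene centred on its own mean. For Clec5a they included Gpr84 (0.043), a receptor for medium-chain fatty acids, and Itgax (0.054). For Fcgr3 they included Dok2 (0.066), an adaptor that dampens tyrosine kinase signals, and Slc11a1 (0.084), a metal transporter of the phagosome. For Clec7a they were Radx (0.186), a protein of the replication fork, Clec5a (0.195) and Gpr84 (0.204). The medians over all other genes were 1.19, 1.18 and 1.33 in the same order. Fcgr3 ranked 21 by likeness to Clec5a, and Clec7a ranked 33 by likeness to Fcgr3. The measure includes the difference between the groups, on which these genes had been selected.

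The annotation that the authors deposited with the table gave the 3 genes few terms in common. All 3 carried integral component of membrane, as did 34 genes of the table, 26 called higher and 7 lower. Clec7a and Fcgr3 shared phagocytosis recognition and phagocytosis engulfment, which no other gene of the table carried. They also shared positive regulation of phagocytosis with Slc11a1 and Dock2, a Rac activator, and all 4 were called higher, in a table where 41.3% of genes were. Clec5a carried none of the phagocytosis terms and shared plasma membrane with Fcgr3.

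**Figure D5:**
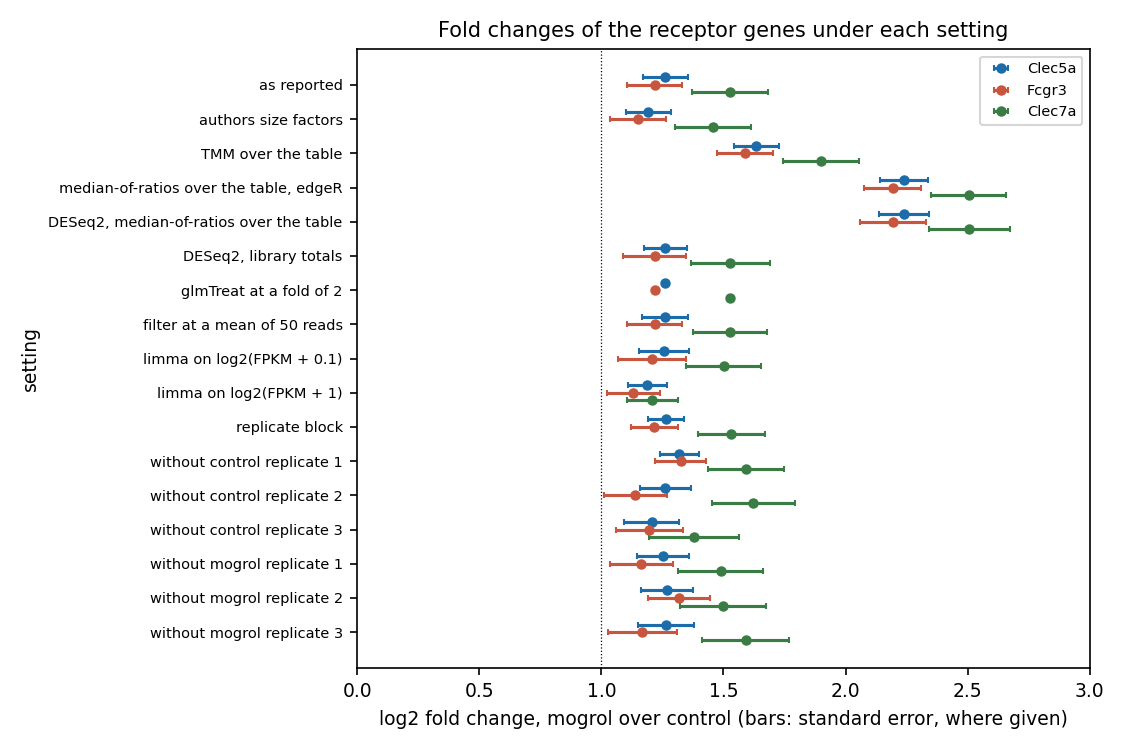
Log2 fold change of the receptor genes (horizontal axis; dotted line at 1; bars are standard errors, which glmTreat does not give) under each setting (vertical axis). All values lie above 1, between 1.13 and 2.51, and the scalings computed on the selected table itself shift all 3 genes upwards together.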

How the data were processed

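Gene expression was measured by RNA-seq in 3 control and 3 mogrol libraries. Per the labels, reads were trimmed with cutadapt 1.9.1, aligned to GRCm38 with HISAT2 2.0.1 and counted with HTSeq 0.6.1. The use of strand is not given in the sources used here. The deposited table holds raw counts and FPKM (rounded to 2 decimals by the authors) for genes selected with DESeq2, and a mean normalized signal, which the authors made with size factors. Its log2 fold changes, standard errors, test scores and p-values are the authors' own comparison and were not used.

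Library totals were recovered from the deposited counts, FPKM and gene lengths to within 35.7 reads. Counts of all 109 genes were tested with edgeR 4.0.16 (R 4.3.3, quasi-likelihood test, library totals, no filter or covariate), with Benjamini-Hochberg adjustment. Calls required a log2 fold change above 1 or below -1 and an adjusted p-value under 0.05. Each standard error is the log2 fold change over the root of its F statistic. Pair ratios were tested by exact permutation. Libraries of a group differed by more than sampling noise (chi-square 5.28 to 40.8 per degree of freedom). Alternatives used DESeq2 1.42.0, limma 3.58.1, other scalings, a filter at a mean of 50 reads, a replicate block and each library left out.

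The receptor genes and 10 gene lists were chosen with earlier results of these data known. Genes named are the receptor genes, list members with rows, the 3 closest profiles and genes sharing GO terms, of which 1 gene is not reported here. Gene models were those of GENCODE M21, which gave the same ends for the 3 genes. Upstream sequences came from RefSeq (GRCm38.p6), with the first listed start per gene for shares and the start nearest the deposited gene for those printed.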

Additional observations from a re-analysis of the deposited data

How the results depend on the processing

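The log2 fold changes of the 3 receptor genes kept their direction and their call under all 10 alternatives and in all 6 fits that left out a library. They ran from 1.21 to 2.51 for Clec7a, 1.19 to 2.24 for Clec5a and 1.13 to 2.19 for Fcgr3 under the alternatives, and from 1.38 to 1.62, 1.21 to 1.32 and 1.14 to 1.32 with a library left out. The highest values came from median-of-ratios scaling over the table, which moved the log2 fold changes by over 1.5 times. Tested against a fold of 2 with edgeR's glmTreat, the adjusted p-values were 0.00025, 0.0013 and 0.012. The authors had selected these genes at the same fold on the same libraries. Neither this test nor the kept direction and call is therefore independent evidence. Called counts were 45 higher and 62 lower, and 36 lower with TMM, 8 lower with median-of-ratios scaling in edgeR and in DESeq2, and 25 higher and 27 lower with limma on log2(FPKM + 1), whose pseudocount shrinks low genes. Higher genes made up 42.1% of the called genes, and 55.6% and 84.9% with TMM and median-of-ratios scaling, where fewer genes were called lower and the count of higher genes stayed at 45. Leaving out libraries gave 45 higher and 60 to 63 lower.

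The difference between Clec5a and Fcgr3 turned from 0.0474 to -0.0544 without mogrol replicate 2, the low Fcgr3 library, and ran from -0.0544 to 0.1305 over the libraries left out. With the replicate block the counts stayed at 45 and 62, and the log2 fold changes were 1.53, 1.26 and 1.22 for Clec7a, Clec5a and Fcgr3. Their standard errors were smaller, 0.137, 0.0751 and 0.0955 against 0.155, 0.0927 and 0.114 without the block. The pair differences were 0.27, 0.32 and 0.05. Deviations of same-numbered libraries correlated at 0.0839, 0.197 and 0.0666 across genes, which are not independent replicates, and 5 of 6 libraries correlated best with their own number, and the numbers were treated as names only. Low depth limits Clec7a most, with 210.3 reads per library on average.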
